A study of Mus musculus with 3 samples.

Results

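Transforming growth factor beta (TGF-beta) signalling was described in resting mouse macrophages through 10 genes, chosen by symbol from the ligand to the target end of the pathway and not by a cut on their values. They were the ligand gene Tgfb1, the receptor genes Tgfbr1 and Tgfbr2, the SMAD genes Smad2, Smad3, Smad4 and Smad7, the co-repressor genes Ski and Skil, and Tgfbi, which encodes a TGF-beta-induced matrix protein. All 10 were found among the 55536 genes of the gene tables, and all 10 were among the 11886 genes that passed the filter on low counts. The cells were macrophages grown from C57BL/6J bone marrow, and polyadenylated RNA was sequenced in 3 libraries. Every library carried the label of 100 ng/ml lipid A, the Toll-like receptor 4 ligand within bacterial lipopolysaccharide, for 0 minutes. The 3 libraries thus formed 1 group with no second group to compare with. They were labelled as biological replicates and had separate biosample records but 1 donor record. Whether the cultures came from separate animals is not stated, so the spread between them may be partly technical.

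TGF-beta is made as a precursor whose cleaved amino-terminal part stays bound to the growth factor and keeps it latent until it is released by integrins or proteases. Active ligand binds the type II receptor (Tgfbr2), which phosphorylates the type I receptor (Tgfbr1), and this kinase phosphorylates SMAD2 and SMAD3, which enter the nucleus with SMAD4. SKI and SKIL hold SMAD target genes in check, and SMAD7 blocks the receptors as part of a feedback loop. In macrophages the pathway is known for restraining inflammatory responses and, in microglia and other resident macrophages, for maintaining the identity of the cell.

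Levels are given in TPM, a transcript abundance divided by length and scaled to 1 common sum per library. The gene tables held 27946047, 29779380 and 53447427 counts in replicates 1, 2 and 3. All 10 macrophage markers reached 1 TPM in all 3 libraries, among them Csf1r at 590.9, 1279.4 and 805.6 TPM. None of the 10 markers of T, NK and B cells reached 1 TPM in every library, and 10 of the 11 markers of fibroblasts, stroma and osteoblasts were below 1 TPM in every library. The summed level of the stromal list was 2.64, 1.74 and 2.60 TPM. The platelet list summed to 2455.1, 325.6 and 587.1 TPM, nearly all of it from Pf4. All 5 tested genes of that list were over 2-fold apart, against 36.9% of all genes that passed the filter. On scaled counts 4 of the 5 were highest in replicate 3, among them Ppbp at 8.16, 1.60 and 10.4 TPM. The markers Itga2b, Gp9 and Gp6 were below 1 TPM in every library. Gp1ba, at 0.31, 0.46 and 1.62 TPM, and Itgb3, at 4.57, 5.88 and 10.6 TPM, were not, and both were highest in replicate 3. The neutrophil list summed to 171.9, 36.2 and 337.1 TPM. In such bulk libraries fewer cells of a type and less RNA per cell cannot be told apart. On the TPM scale the median gene of replicate 3 stood -0.23 (log2) from the other libraries, against 0.10 and 0.12 in replicates 1 and 2, so spread is given below on CPM (counts scaled to library size) adjusted by TMM factors, called scaled counts.

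All members but Smad7 were at or above 1 TPM in all 3 libraries, which made 9 of 10 against 44.8% of all protein-coding genes. The median of the members' mean levels was 27.0 TPM, beside 14.9 TPM over all genes that passed the filter. The order of mean levels was Tgfb1, Tgfbr2, Ski, Tgfbr1, Smad2, Tgfbi, Smad4, Skil, Smad3 and Smad7. Only 3 steps in this order separated neighbours without overlap of their 3 values: Tgfb1 over Tgfbr2, Tgfbr2 over Ski, and Smad3 over Smad7. The 7 genes from Ski to Smad3 overlapped their neighbours in the order.

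**Figure D1:**
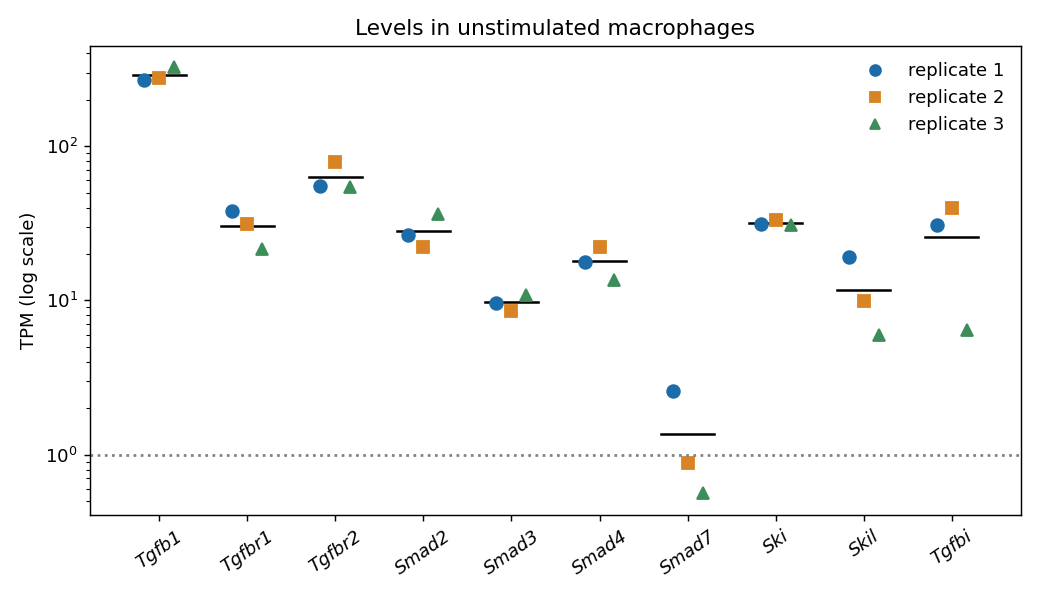
Level of each gene in TPM on a log axis, with 1 point per library, the black line at the mean of the 3 libraries and the dotted line at 1 TPM. Tgfb1 lies above every other gene in every library, and Smad7 lies above the dotted line in replicate 1 only.

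The ligand gene Tgfb1 (ENSMUSG00000002603.15, chr7:25687002-25705077, plus strand, build mm10) was the highest of the 10. Its level was 268.4, 278.1 and 325.2 TPM in replicates 1, 2 and 3, a mean of 290.6 ± 30.4 TPM (SD, n = 3), and it ranked at percentile 96.2 of genes at or above 1 TPM in all 3 libraries. The libraries lay close together in this TPM of the gene table, with replicate 3 the highest. They lay further apart in the kallisto-format table, at 194.0, 205.9 and 309.1 TPM. Behind the values of the gene table stood 9422, 10453 and 23956 counts. These were 337.1 (95% Wilson interval 330.4 to 344.0), 351.0 (344.4 to 357.8) and 448.2 (442.6 to 453.9) CPM before scaling. On scaled counts replicate 3 was 1.49-fold above replicate 1. The coding transcript Tgfb1-201 took 98.1 ± 1.46% of the gene's TPM in the RSEM-format table and 95.3 ± 2.5% in the kallisto-format table.

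Among the TGF-beta ligand genes Tgfb1 alone was above 1 TPM: Tgfb2 was at 0.16, 0.02 and 0.03 TPM and Tgfb3 at 0.61, 0.10 and 0.28 TPM. Of the 9 genes of ligands and latency, 3 were at or above 1 TPM in all 3 libraries and 6 were below it in every library. Nrros, which encodes the membrane anchor of latent TGF-beta1 in myeloid cells, was at 255.7, 233.2 and 90.7 TPM, lowest in replicate 3. Ltbp3, a latent TGF-beta binding protein that tethers the complex to matrix, was at 12.9, 12.5 and 11.4 TPM. Lrrc32, the anchor known from regulatory T cells and platelets, was at 0.09, 0.19 and 0.14 TPM.

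Of 12 genes whose products can release active TGF-beta, 8 were at or above 1 TPM in all 3 libraries. The integrin chain gene Itgb1 was at 320.6 ± 53.0 TPM, Thbs1 (thrombospondin 1) at 169.1 ± 39.2 TPM and Itgb5 at 128.6 ± 30.4 TPM (SD, n = 3). Furin, the protease that cuts the TGF-beta precursor, was at 38.6, 55.4 and 28.8 TPM. The integrin chains best known for activating TGF-beta were at or near 0, with Itgb8 at 0.01, 0.02 and 0.03 TPM and Itgb6 at 0.00, 0.01 and 0.00 TPM. On scaled counts 4 of the 9 tested were over 2-fold apart, against 36.9% of all tested genes, with no common direction. Plau, the urokinase gene, at 540.0, 37.3 and 36.4 TPM, and Itgav, the integrin alpha V chain, at 54.3, 18.1 and 14.1 TPM, were highest in replicate 1. Itgb3, the integrin beta 3 chain, at 4.57, 5.88 and 10.6 TPM, and Mmp9, a gelatinase gene, at 0.6, 0.19 and 1.5 TPM, were highest in replicate 3.

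The type II receptor gene Tgfbr2 (ENSMUSG00000032440.13, chr9:116084293-116175360, minus strand) was at 55.4, 79.5 and 54.3 TPM, a mean of 63.1 ± 14.2 TPM. The type I receptor gene Tgfbr1 (ENSMUSG00000007613.15, chr4:47353222-47414931, plus strand) was at 37.9, 31.2 and 21.5 TPM, a mean of 30.2 ± 8.23 TPM. Tgfbr2 was above Tgfbr1 in each of the 3 libraries, by 1.46-fold, 2.54-fold and 2.52-fold. On scaled counts Tgfbr2 spread 1.54-fold and Tgfbr1 1.41-fold. The place of replicate 3 depended on the measure for Tgfbr2, which was lowest there in the TPM of the gene table only. It was highest there in scaled counts (309.0 against 200.4 and 282.9 CPM) and in kallisto-format TPM (71.6 against 44.1 and 61.8). Tgfbr1 was lowest in replicate 3 by each of these measures.

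Both receptor genes are spliced in alternative ways that keep the reading frame, and the sequences of these segments are shown because the tables agreed closely on the share of one and differed on the other. In Tgfbr2 a cassette exon of 75 bases, or 25 codons (chr9:116158271-116158345, minus strand, mm10), lies in Tgfbr2-202 and is skipped in Tgfbr2-201. In Tgfbr1 the 12 bases, or 4 codons, at the 5′ end of an exon (chr4:47393247-47393258, plus strand) are kept in Tgfbr1-201 and left out of Tgfbr1-202. Both segments are in the part of the messenger RNA that encodes the receptor. Each is printed 5′ to 3′ from GENCODE M21 transcripts, with the segment in capitals between 20 bases of the flanking exon sequence in lower case.
Tgfbr2 cassette exon: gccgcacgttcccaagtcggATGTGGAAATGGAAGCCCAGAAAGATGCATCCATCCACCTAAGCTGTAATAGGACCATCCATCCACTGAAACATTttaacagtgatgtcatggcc
Tgfbr1 exon extension: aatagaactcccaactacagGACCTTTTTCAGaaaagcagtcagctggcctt
The Tgfbr1 extension ends in CAG, the letters that commonly precede the start of an exon.

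The 12-base extension of Tgfbr1 was the main form in every library. It was in 94.2%, 94.0% and 95.5% of the TPM that covered or skipped it in the RSEM-format table, and in 90.9%, 92.1% and 95.1% in the kallisto-format table. The 75-base exon of Tgfbr2 had no such agreement. It was in 52.7%, 52.5% and 85.1% by the RSEM-format table, with replicate 3 apart, and in 36.7%, 38.0% and 39.0% by the kallisto-format table, where the libraries lay within a few percent of one another. Accordingly the leading Tgfbr2 transcript was Tgfbr2-202 in the first table (63.5 ± 18.8% of TPM) and Tgfbr2-201 in the second (62.1 ± 1.15%). These transcripts differ in length too, at 8092 and 3476 bases, and by estimated counts Tgfbr2-202 led in both tables. The interval deposited with the RSEM-format value of Tgfbr2-201 in replicate 3 ran from 6.64 to 9.18 TPM, whereas the kallisto-format value there was 43.7 TPM, so the interval did not cover the difference between the tables.

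**Figure D2:**
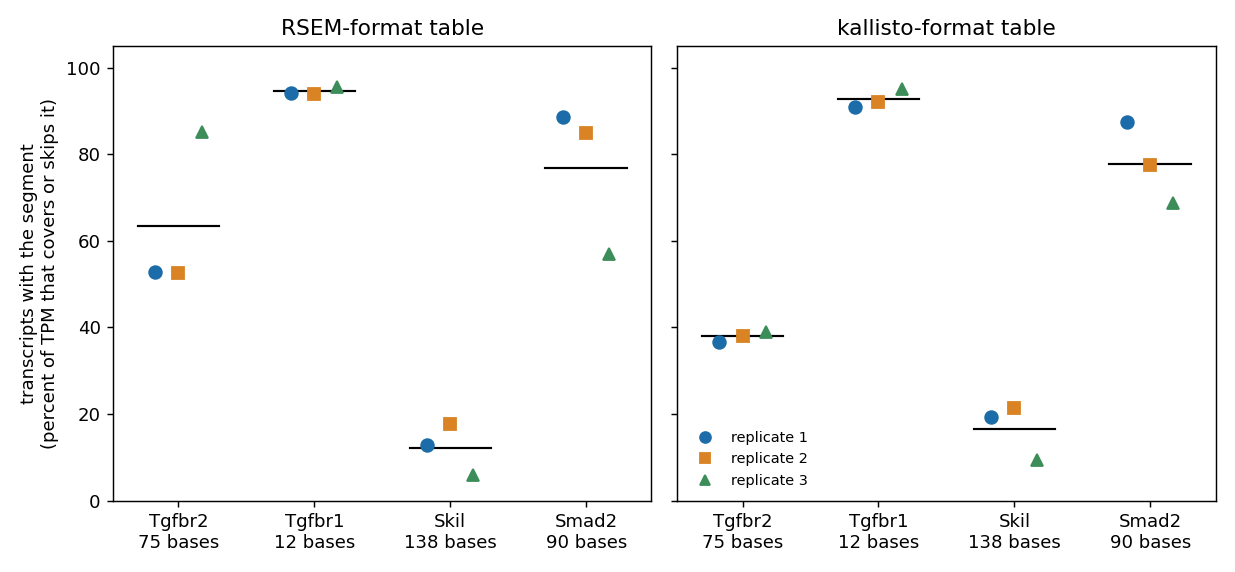
Share of the TPM covering or skipping a segment that came from transcripts holding it, in percent, for 4 alternative coding segments, with 1 point per library and a black line at the mean. The left panel is the RSEM-format table and the right panel the kallisto-format table. Tgfbr1 sits above 90% in both, while Tgfbr2 moves from a mean of 63.5% to 37.9%.

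Of the 6 genes of TGF-beta receptors and co-receptors, 4 were at or above 1 TPM in all 3 libraries. Eng (endoglin, a co-receptor) was at 22.2, 21.1 and 18.4 TPM and Acvrl1, the type I receptor ALK1 in protein nomenclature, at 9.35, 10.8 and 6.04 TPM. Tgfbr3 (betaglycan), the co-receptor that presents ligand to Tgfbr2, was below 1 TPM in every library at 0.44, 0.30 and 0.51 TPM. Bambi, a decoy receptor, was at 1.72, 1.56 and 0.46 TPM. Of the 9 other receptors of the superfamily 4 were at or above 1 TPM in all 3 libraries, led by Bmpr2 at 13.4 ± 0.545 TPM and Acvr1b at 11.3 ± 1.8 TPM (SD, n = 3), and Acvr1c was listed at 0 in every library.

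The activating SMADs were present in every library, with Smad2 above Smad3 and little spread in the scaled counts of these 2 genes. Smad2 (ENSMUSG00000024563.16, chr18:76241580-76310963, plus strand), a receptor-activated SMAD, was at 26.4, 22.3 and 36.1 TPM, a mean of 28.3 ± 7.1 TPM. Smad3 (ENSMUSG00000032402.12, chr9:63646767-63757994, minus strand), its closest relative, was at 9.61, 8.55 and 10.9 TPM, a mean of 9.69 ± 1.19 TPM. Smad2 exceeded Smad3 in every library, by 2.75-fold, 2.61-fold and 3.31-fold, and the log2 ratio was 1.52 ± 0.18. On scaled counts the libraries differed by 1.23-fold for Smad2 and 1.13-fold for Smad3. Smad3 had a log2 SD of 0.09, at percentile 3.5 of all tested genes. Smad4 (ENSMUSG00000024515.13, chr18:73639009-73703780, minus strand), the shared partner, was at 17.8, 22.3 and 13.6 TPM, a mean of 17.9 ± 4.33 TPM, and was below the sum of Smad2 and Smad3 in every library. Its scaled counts spread 1.42-fold.

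The high Smad2 TPM of replicate 3 was not seen in its scaled counts, which were 53.8, 43.7 and 49.3 CPM. It went with a different split among transcripts: Smad2-201 held 62.2%, 59.1% and 33.3% of Smad2 TPM in the RSEM-format table and 61.6%, 51.6% and 29.0% in the kallisto-format table. In replicate 3 more TPM was assigned to shorter annotated transcripts such as Smad2-207, of 628 bases, at 0.00, 0.00 and 8.74 TPM in the RSEM-format table. Smad4-201 (97.5%, 99.1% and 74.7%) and Smad3-201 (93.7%, 100.0% and 67.2%) were also lowest in replicate 3 in that table. Over all members, the transcript that led in the RSEM-format table had its lowest share in replicate 3 for 5 of 10 genes, against 38.8% of genes. Followed in the kallisto-format table, the same transcripts were lowest there for 5 of 10, against 35.7%. For Tgfbr2 and Ski other transcripts led in the kallisto-format table. These were Tgfbr2-201 (63.3%, 62.0% and 61.0%) and Ski-201 (67.3%, 70.7% and 7.99%), both also lowest in replicate 3. A cassette exon of Smad2, 90 bases or 30 codons long, was in 88.7%, 84.8% and 57.0% of the TPM by the RSEM-format table and in 87.4%, 77.4% and 68.8% by the kallisto-format table.

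Smad7 (ENSMUSG00000025880.11, chr18:75367529-75395935, plus strand), the inhibitory SMAD, was the lowest member and, on scaled counts, the most uneven. In TPM Tgfbi spread more, 6.24-fold against 4.64-fold. It was at 2.60, 0.88 and 0.56 TPM, a mean of 1.35 ± 1.1 TPM. Only replicate 1 was above 1 TPM, and it had 174 counts where replicates 2 and 3 had 32 and 59. The 95% Wilson intervals of its share were 5.37 to 7.22, 0.761 to 1.52 and 0.856 to 1.42 CPM before scaling, so replicate 1 stood above the others by more than counting error. On scaled counts the highest library was 5.82-fold above the lowest, and the log2 SD of 1.41 was at percentile 97.4. Smad7 transcript shares rest on these low counts and are not described further.

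Of the 8 SMAD genes 5 were at or above 1 TPM in all 3 libraries, namely Smad1 at 9.71 ± 1.74 TPM and Smad5 at 4.70 ± 0.94 TPM (SD, n = 3), which serve the bone morphogenetic protein (BMP) branch, with Smad2, Smad3 and Smad4. Smad9 was at 0.03, 0.00 and 0.00 TPM. Smad6, the inhibitory SMAD of the BMP branch, was at 4.28, 0.24 and 0.06 TPM, from 214, 13 and 6 counts. Like Smad7 it stood high in replicate 1, but it did not pass the filter, which kept genes with enough counts in all 3 libraries.

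The ubiquitin ligases, phosphatases and other genes of receptor and SMAD turnover were broadly present, 17 of 19 at or above 1 TPM in all 3 libraries. The ubiquitin ligase gene Wwp1 was at 145.5 ± 28.5 TPM, Fkbp1a (FKBP12, which holds the type I receptor inactive) at 118.2 ± 17.5 TPM and Stub1 at 69.3 ± 14.0 TPM (SD, n = 3). Nedd4l, a ubiquitin ligase for phosphorylated SMAD2 and SMAD3, was at 24.9, 47.0 and 84.3 TPM and spread 3.95-fold on scaled counts. Of the 9 co-activator and partner genes 8 were at or above 1 TPM in all 3 libraries. None of the 8 tested was over 2-fold apart, against 36.9% of all tested genes. Ep300, a histone acetyltransferase that SMAD3 recruits, was at 25.7, 45.5 and 22.0 TPM.

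The co-repressor Ski (ENSMUSG00000029050.15, chr4:155154075-155222592, minus strand) was among the steadiest genes measured. It was at 31.3, 33.3 and 30.6 TPM, a mean of 31.8 ± 1.4 TPM, and spread 1.15-fold on scaled counts, at percentile 4.66 of all tested genes. Its paralogue Skil (ENSMUSG00000027660.16, chr3:31095058-31122577, plus strand), which is both a repressor of SMADs and a target of the pathway, was at 19.2, 9.90 and 5.95 TPM, a mean of 11.7 ± 6.81 TPM. Skil had 2190, 1235 and 1476 counts, and its scaled counts were 75.9, 39.6 and 30.0 CPM, a 2.53-fold spread with replicate 1 the highest. Ski exceeded Skil in every library, by 1.63-fold, 3.37-fold and 5.15-fold.

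Features of both genes are shown by sequence, again 5′ to 3′ from GENCODE M21 transcripts (mm10). In Skil 138 bases, or 46 codons, at the 3′ end of an exon (chr3:31113503-31113640, plus strand) are kept in Skil-201 and left out of Skil-204. The segment opens with GTAAGT, the letters that commonly follow the end of an exon. In Ski the transcript Ski-203, annotated as a processed transcript with no coding region, starts with a 40-base exon (chr4:155188257-155188296, minus strand) inside intron 1 of the coding transcript Ski-201. It lacks the first coding exon and shares the later exons. Capitals mark the Skil segment and the Ski-203 exon, and lower case marks 20 bases of neighbouring exon.
Skil exon extension: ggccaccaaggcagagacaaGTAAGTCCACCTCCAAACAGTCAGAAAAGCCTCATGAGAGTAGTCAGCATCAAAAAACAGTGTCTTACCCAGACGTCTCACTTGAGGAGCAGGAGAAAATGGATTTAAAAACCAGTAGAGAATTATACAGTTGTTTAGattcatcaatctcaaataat
Ski-203 first exon: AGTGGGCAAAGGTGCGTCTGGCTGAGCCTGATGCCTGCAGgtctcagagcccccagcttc

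The 138-base Skil segment was the minor form in every library, in 12.9%, 17.8% and 5.87% of TPM by the RSEM-format table and in 19.2%, 21.3% and 9.30% by the kallisto-format table. Replicate 3 was the lowest in both. For Ski the noncoding Ski-203 held 52.7%, 49.7% and 78.8% of the gene's TPM in the RSEM-format table and 30.3%, 29.3% and 68.3% in the kallisto-format table. The coding Ski-201 held 47.3%, 48.9% and 8.81% in the first and 67.3%, 70.7% and 7.99% in the second. Replicates 1 and 2 thus differed between tables, while replicate 3 had little Ski-201 in either. Ski was the 1 member of 10 whose leading transcript was not protein coding in the RSEM-format table, against 5.9% of protein-coding genes. The leading transcript was the same in both tables for 8 of 10 members, the exceptions being Tgfbr2 and Ski, against 89.5% of genes.

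Of the 9 co-repressor genes, 7 were at or above 1 TPM in all 3 libraries. Ncor1, a nuclear receptor co-repressor that SKI binds, was at 83.1, 99.2 and 220.0 TPM, and Tgif1, a homeodomain repressor of SMAD2, at 64.8, 58.9 and 66.0 TPM.

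Tgfbi (ENSMUSG00000035493.10, chr13:56609523-56639562, plus strand), the matrix protein gene named for its induction by TGF-beta, was at 30.9, 39.9 and 6.39 TPM, a mean of 25.7 ± 17.3 TPM. Replicate 3, the library with the most counts, had the fewest from this gene, 595 against 1394 and 1919. Scaled counts were 48.3, 61.5 and 12.1 CPM, a 5.08-fold spread at percentile 95.9 of all tested genes, and the log2 ratio of replicate 3 to the other libraries was -2.17. Tgfbi was thus lowest in replicate 3, where Tgfb1 was highest. Its order of libraries had no fixed relation to that of Smad7. Smad7 was low in replicates 2 and 3, where Tgfbi was highest and lowest, and high in replicate 1, where Tgfbi was also high.

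Across the 10 genes, 3 were over 2-fold apart between their highest and lowest library (Tgfbi, Smad7 and Skil), against 36.9% of the 11886 genes tested. The other 7 lay within 1.54-fold. The median spread of the members was 1.45-fold, beside 1.73-fold over all tested genes. The 3 uneven genes are the 3 members that also stand on the list of common TGF-beta targets. The ligand, both receptors, the activating SMADs and Ski were the even ones. That list was chosen with earlier results of these data known, so this split is a description and not a test. Without replicate 1 only Tgfbi was over 2-fold apart, against 19.6% of tested genes. Without replicate 3 only Smad7 was, against 19.9%. Without replicate 2 all 3 still were, against 21.9%. The count of 3 thus rests on replicates 1 and 3, and the share over all genes fell too with 1 library left out. On scaled counts 4 of 10 members were highest in replicate 1, against 34.7% of tested genes.

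**Figure D3:**
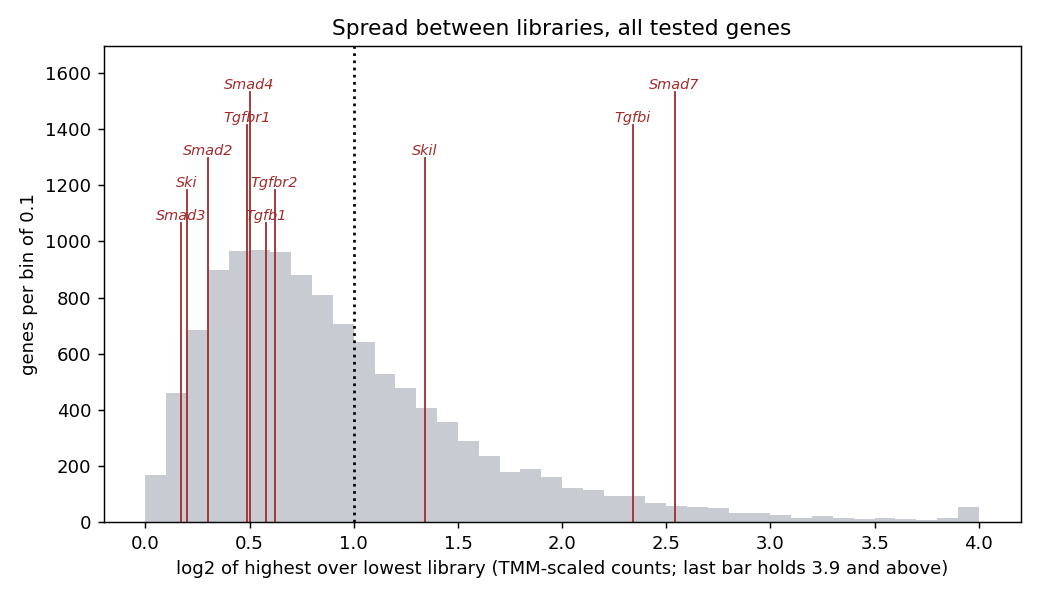
Histogram of the log2 ratio of the highest to the lowest library on scaled counts for the 11886 tested genes, with the 10 members as labelled red lines and a dotted line at 2-fold. Tgfbi, Smad7 and Skil lie right of the dotted line and the other 7 members lie left of it.

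**Figure D4:**
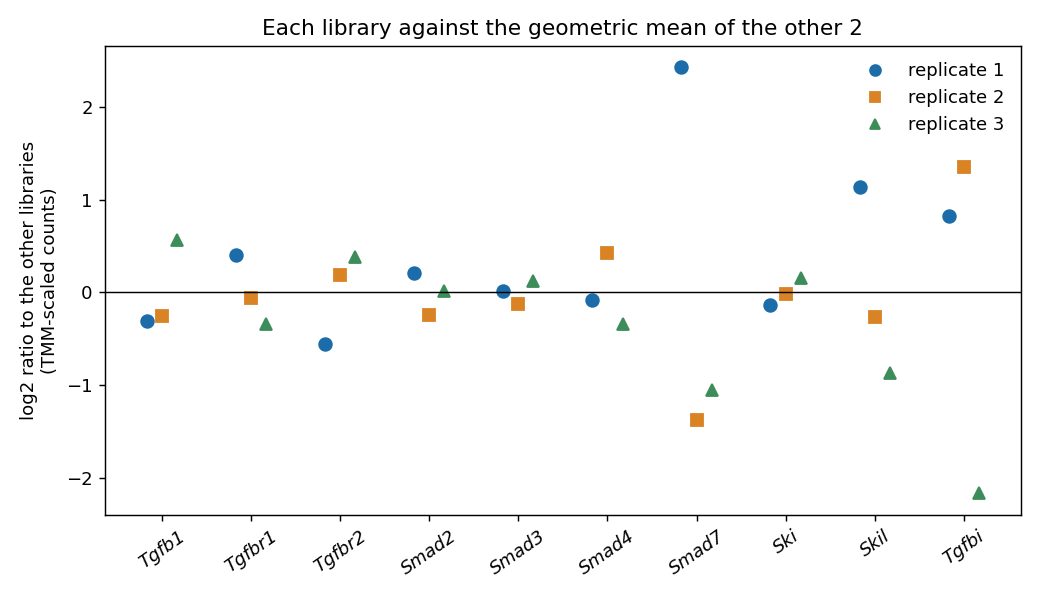
Log2 ratio of each library to the geometric mean of the remaining libraries, on scaled counts, for each member. Replicate 1 is high for Smad7 and Skil, and replicate 3 is low for Tgfbi at -2.17.

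The gene table and the kallisto-format table gave similar gene levels when averaged over the 3 libraries. Single libraries could differ in direction. Tgfbr2 was at 55.4 TPM in the gene table and 44.1 TPM in the kallisto-format table in replicate 1, but at 54.3 and 71.6 TPM in replicate 3. After the median difference of 1.21-fold was removed, none of the 10 members was over 1.5-fold apart between tables on this average, against 5.03% of genes. The furthest was Smad4 at 1.18-fold.

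A list of 24 common TGF-beta targets was read beside the members. Of these, 8 were at or above 1 TPM in all 3 libraries, and 17 reached it in at least 1 library. Of those 17, 13 were highest in replicate 1 by TPM, against 39.4% of all genes that reached 1 TPM in any library. Among the 10 members 3 were highest there in TPM. Leaving out the members on the list, 11 of 14 were highest in replicate 1. Id1 and Id3, which encode inhibitors of DNA binding and are known as direct targets of BMP-activated SMADs, were chosen for mention after their values were seen, as was Smad6 above. Id1 was at 68.7, 0.23 and 0.26 TPM, from 863, 3 and 7 counts. Id3 was at 29.7, 2.64 and 0.23 TPM, from 552, 53 and 7 counts. Both were far higher in replicate 1, and neither passed the filter on low counts. The BMP ligand genes looked up at the same stage did not share this. Bmp2 was at 1.74, 4.22 and 7.48 TPM, lowest in replicate 1, and Bmp4, Bmp6 and Bmp7 were below 1 TPM in every library. A part of BMP signalling in these values was not tested.

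**Figure D5:**
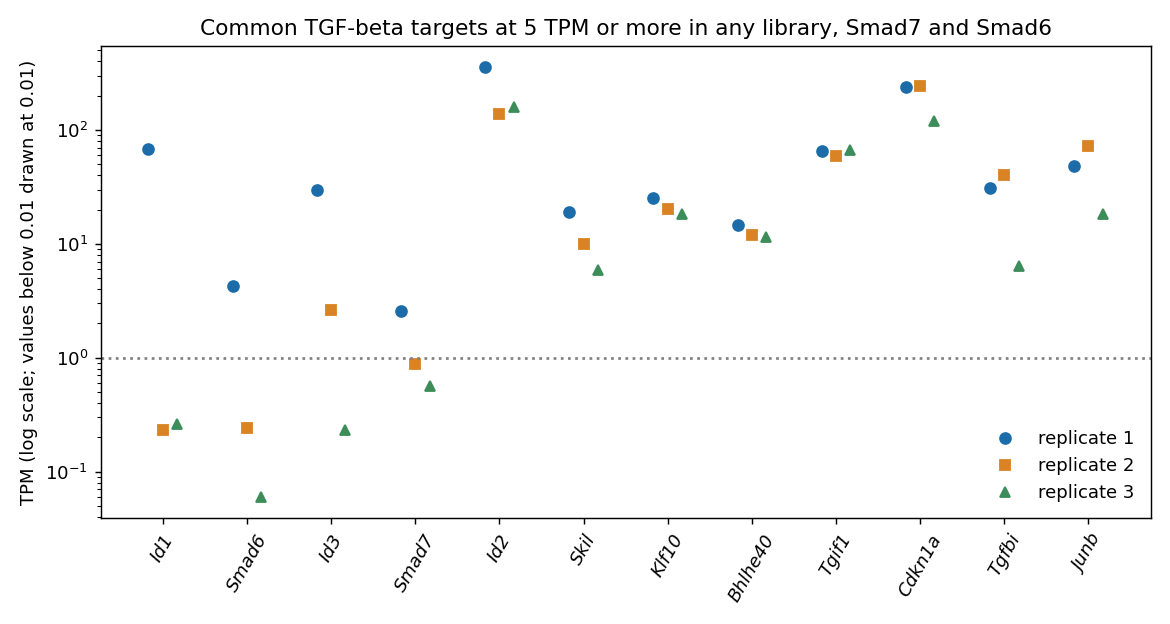
TPM on a log axis of the common TGF-beta targets at or above 5 TPM in any library, with Smad7 and Smad6 added, and with 1 point per library, ordered by the ratio of replicate 1 to replicate 2. Id1, Smad6 and Id3 at the left are separated most, and Tgfbi and Junb at the right are higher in replicate 2.

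Id2, of the same family as Id1 and Id3, was highest in replicate 1 as well, at 353.9, 137.4 and 159.4 TPM. Cdkn1a, the p21 cell-cycle inhibitor gene, was at 238.2, 241.5 and 120.0 TPM and Junb at 48.0, 73.0 and 18.2 TPM, both lowest in replicate 3 as Tgfbi was. The type I and III collagen genes of this list were not among the 17. The stromal list, which holds them, summed to 2.64 TPM or less in every library. Pf4 was also high in replicate 1, at 2441.2, 316.9 and 563.5 TPM. Its part in these values was not tested.

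Of 12 genes that depend on TGF-beta in microglia and resident macrophages, 6 were at or above 1 TPM in all 3 libraries. Fcrls, an Fc receptor-like gene of microglia, was at 93.8, 248.6 and 79.2 TPM. Mertk, a receptor for apoptotic cells, was at 49.5, 80.9 and 112.3 TPM. Sall1, the transcription factor gene that marks microglia, was listed at 0 in every library.

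Over all 112 pathway genes, 68 were at or above 1 TPM in all 3 libraries and 27 were below it in every library. Of the 102 that are not members, 59 were at or above 1 TPM in all 3 libraries, against 44.8% of all protein-coding genes. The counts of each pathway list above have the same share behind them. Among the 71 tested of these 102, 23 were over 2-fold apart, near the 36.9% of all tested genes.

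RefSeq promoter windows (build GRCm38.p6), each of 300 bases, were matched for 6 of the 10 genes, giving 7 windows. The SMAD-binding motif CAGAC, on either strand, was in 3 of the 7 windows, against 49.6% of all windows. The windows with it were 1 of the 2 of Tgfbr1, that of Tgfbr2 and that of Tgfbi. The PU.1-like motif GAGGAAG was in 2 of 7, against 13.6%, and the AP-1 motif TGAGTCA in 0 of 7, against 5.2%. The palindrome GTCTAGAC, which does not contain CAGAC, was in 0 of 7, against 0.213%.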

How the data were processed

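Per the labels, polyadenylated RNA of 3 libraries in 1 group was measured. The expected counts and TPM of the gene and RSEM-format transcript tables, and the estimated counts and TPM of the kallisto-format tables, were used as deposited by the authors on build mm10 and GENCODE M21. The aligner, program versions and strand setting have no entry in the labels or headers (not given in the sources used), so reads of antisense or overlapping genes may be mixed. TPM bounds are intervals deposited by the authors, whose level the headers do not state. Expected counts were rounded, filtered with filterByExpr (minimum count 10) and scaled by TMM in edgeR 4.0.16 with a prior count of 0.5. DESeq2 1.42.0 size factors were an alternative. With 1 group no test between conditions was possible, so genes were called over 2-fold apart between libraries and read against all genes. This call was tested on simulated counts of 11857 genes: it was passed by 100% of the 199 genes with a 4-fold change and by 0.2% of unchanged genes. The simulated libraries differed by counting error only. The 0.2% is therefore no error rate for the real libraries, where 36.9% of tested genes passed the call. A transcript share is a transcript's percent of its gene's TPM. Wilson intervals at 95% cover counting error only, since reads are not independent molecules. Library totals ranged from 27946047 to 53447427 counts. The members, the gene lists and the rule for naming genes (all members, and from each list the 3 highest and the lowest by mean TPM, genes over 2-fold apart and further ligands, receptors or SMADs; transcripts at 5% or more of their gene in either table) were chosen with earlier results of these data known. RefSeq proteins were not used here. Values of 3 listed genes are not reported here.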

Additional observations from a re-analysis of the deposited data

How the results depend on the processing

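Tgfbi, Smad7 and Skil were over 2-fold apart with DESeq2 size factors, TPM, no filter, a prior count of 2 and kallisto-format counts. The shares of all genes over 2-fold apart were, in the same order, 36.9%, 32.3%, 60.7%, 36.5% and 38.1%. The same members were thus called each time, but such calls were no more frequent among the members than among all genes. Leaving out 1 library moved the count between 1 and 3 members, and the share over all tested genes to between 19.6% and 21.9%. Scaling TPM to nuclear protein-coding genes moved the median member level from 27.0 to 34.0 TPM. In the kallisto-format table, an alternative chosen after seeing the data, the share of the Tgfbr2 cassette exon was 37.9% in place of 63.5%, and that of the Tgfbr1 extension 92.7% in place of 94.6%. The cause was not tested. These 5 values moved (2 of them by leaving out replicate 1 or 3), and 71 other recomputed main values shifted by under 1 SD between libraries or, for counts of genes, stayed within 1.5 times. Of values for single genes 90 stayed and 30 moved, 21 of them on the log2 TPM scale. On that scale 7 of 30 library ratios of the members changed sign, the largest of them Tgfbr2 in replicate 3 (0.38 to -0.29), and with DESeq2 size factors 0 of 30 did. The levels of Smad7, Smad6, Id1 and Id3 in replicates 2 and 3 rest on 3 to 59 counts, which limits their precision. No paired analysis was possible because there is 1 group.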
